A study of Arabidopsis thaliana with 12 samples.

Results

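STZ (also called ZAT10, locus AT1G27730 on chromosome 1) encodes a zinc finger protein of Arabidopsis thaliana, and its transcript was followed across 4 treatments of seedling roots. It was found by its symbol in the probe annotation and by its locus code in the gene table, which gave 1 gene of the 13286 genes with a named probe set, represented by 1 probe set, 261648_at. Roots of 7-day-old Col-0 seedlings were treated for 3 h with chitin (chito-oligomers, fragments of the fungal wall polymer), with OGs (oligogalacturonides, fragments of plant pectin), with cellobiose (the disaccharide unit of cellulose) or with no elicitor as the control. All 4 groups shared the ecotype, the age, growth on nylon mesh discs and the transfer of the discs to Petri plates for treatment. Each group had 3 labelled biological replicates with 1 Affymetrix ATH1 array each, 12 arrays in all. The labels used here state no elicitor dose.

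The STZ protein belongs to the plant C2H2 zinc finger family, whose members bind DNA through finger domains held by zinc. It is among those that carry a short repression motif, the EAR motif, through which corepressor proteins are recruited. The gene took its name from a role in salt tolerance, and its transcript is known to rise after salt, cold, drought, wounding and strong light. The protein is a known substrate of the MAP kinases MPK3 and MPK6, which are activated when surface receptors detect microbial or damage-derived fragments. No root cell type is set apart by the measurement, since each array holds RNA of whole roots. In such bulk samples, fewer cells that express a gene and less of its RNA per cell cannot be told apart.

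The values below are log2 intensities, so a difference of 1 is a doubling. STZ stood at 8.47, 9.37 and 8.92 on the 3 chitin arrays, replicates 1 to 3. On the OGs arrays it stood at 7.82, 7.68 and 7.32, and on the cellobiose arrays at 6.96, 6.87 and 6.94. The control arrays read 6.54, 6.50 and 6.69. The 4 groups did not overlap: every chitin array lay above every OGs array, every OGs array above every cellobiose array, and every cellobiose array above every control array. Of 22746 probe sets, 62 (0.273 percent) had their 12 arrays in that same full order of groups.

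**Figure D1:**
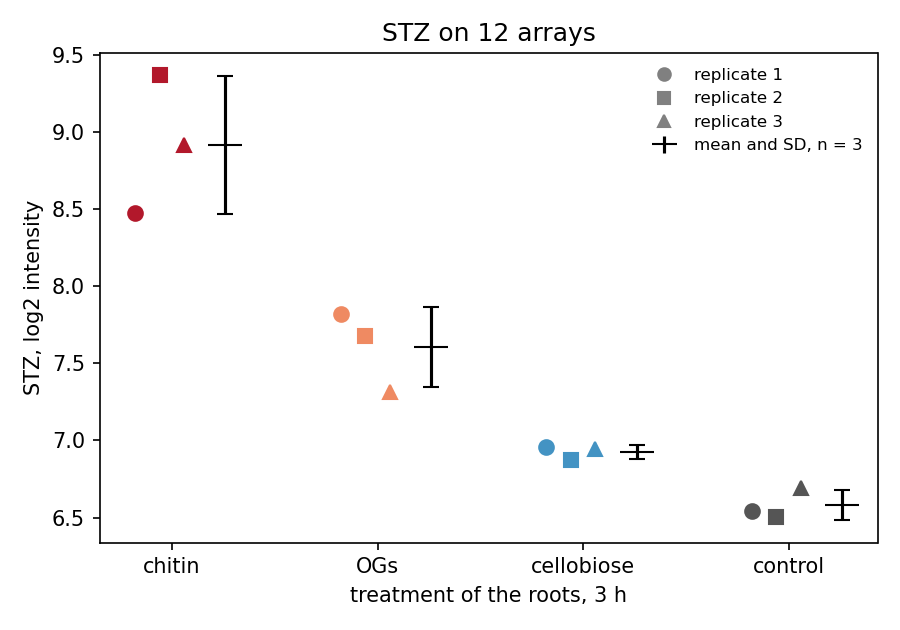
STZ log2 intensity (vertical axis) on each array, by treatment (horizontal axis); symbols mark the replicate number, and the bars give the mean and SD of 3 arrays. The chitin arrays sit between 8.47 and 9.37 and the control arrays between 6.50 and 6.69, with OGs and cellobiose between them and no overlap.

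The group means were 8.92 ± 0.45 after chitin, 7.61 ± 0.26 after OGs, 6.92 ± 0.05 after cellobiose and 6.58 ± 0.10 in the control (SD, n = 3 each). The spread among replicates was widest after chitin, where the arrays covered 0.90 on the log2 scale, and narrowest after cellobiose, where they covered 0.086. Across the 4 groups STZ changed by the moderated F test of limma (F = 59.4, adjusted p = 8.17e-05), as did 9.76 percent of all probe sets. An exact permutation of the group labels within each replicate number gave p = 0.00174, the smallest value that the 13824 arrangements allow. An exact test of 3 arrays against 3 that ignores the replicate number cannot go below p = 0.1, and permuting within replicate numbers allows fewer arrangements still. The pairs of groups below were therefore tested in the limma model, which was fitted to all probe sets with the replicate number as a block.

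Chitin raised STZ the most. The transcript was 5.06-fold higher after chitin than in the control, a log2 change of 2.34 ± 0.19 (SE, 95 percent interval 1.92 to 2.76, adjusted p = 2.08e-05). Between arrays of the same replicate number the differences were 1.93, 2.86 and 2.22, so every chitin array was higher than the control array of its number. In this comparison 11.0 percent of all probe sets were called, and in 10.7 percent the chitin arrays all lay above the control arrays. STZ had the 78th largest increase of the 22746 probe sets. The gap between the lowest chitin array and the highest control array was 1.78, wider than the spread within either group. The change lay between 2.11 and 2.60 when any 1 of the 12 arrays was left out, with the lowest value without chitin replicate 2.

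OGs raised STZ by less. STZ was 2.04-fold higher after OGs than in the control (1.03 ± 0.19 SE on the log2 scale, interval 0.61 to 1.44, adjusted p = 0.0215). The same-numbered arrays differed by 1.28, 1.17 and 0.62, all upward. Of all probe sets 2.65 percent were called after OGs, and in 9.24 percent the OGs arrays all lay above the control arrays. STZ had the 109th largest increase. The call did not hold without OGs replicate 1 (log2 change 0.84, adjusted p = 0.0851), OGs replicate 2 (1.04, adjusted p = 0.0742), control replicate 1 (1.04, adjusted p = 0.0594) or control replicate 2 (0.91, adjusted p = 0.0726), while the increase itself stayed between 0.84 and 1.19.

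OGs replicate 3, the lowest of the OGs arrays for STZ, also stood apart in its control probe sets. Its 3′ minus 5′ difference for GAPDH, a measure of RNA quality, was 1.46 on the log2 scale, against 0.729 to 0.835 on the control arrays and 0.36 and 0.54 on the other OGs arrays. For actin it was 2.11, against 1.46 to 1.57 on the control arrays. Without this array the STZ change after OGs was 1.19 (adjusted p = 0.0257).

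After cellobiose the STZ values were higher than in the control on every array, by 0.41, 0.37 and 0.25 between arrays of the same number, yet the difference did not pass the test. The fitted log2 change was 0.34 ± 0.19 (SE, adjusted p = 0.402), or 1.27-fold, with an interval from -0.08 to 0.76. As a fold, the interval spans 0.949 to 1.70. In 12.3 percent of all probe sets the 3 cellobiose arrays lay above the 3 control arrays, so the lack of overlap at STZ is a common pattern in this comparison, in which 2.27 percent of probe sets were called. When the cellobiose and control arrays were fitted without the others, the adjusted p was 0.11.

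The elicitors were also compared with each other, to ask whether STZ differed between the treatments as given. Since the labels used here state no dose, the kind of fragment and its dose cannot be told apart. STZ was lower after OGs than after chitin, at 0.402-fold (log2 difference -1.31 ± 0.19 SE, interval -1.73 to -0.89, adjusted p = 0.00288). The same-numbered arrays differed by -0.65, -1.69 and -1.60. Of all probe sets 3.57 percent were called between OGs and chitin, and in 8.83 percent the OGs arrays all lay below the chitin arrays. STZ was 3.99-fold higher after chitin than after cellobiose (2.00 ± 0.19 SE, interval 1.58 to 2.41, adjusted p = 0.000124), where 5.45 percent were called and 10.7 percent had all chitin arrays above all cellobiose arrays. Both of these calls held without any 1 array.

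Between OGs and cellobiose STZ did not pass the test over all probe sets. It was 1.60-fold higher after OGs (0.68 ± 0.19 SE, adjusted p = 0.147), with 1.31 percent of probe sets called and 8.63 percent with all OGs arrays above all cellobiose arrays. The 95 percent interval of the fold, which is not adjusted for the number of probe sets, ran from 1.20 to 2.14. Fitted without the chitin and control arrays, the same difference was called (adjusted p = 0.0412). In the order of the 4 levels, therefore, chitin and OGs were separated by the test, while the neighbours OGs and cellobiose, and cellobiose and control, were not separated in the fit of all 12 arrays.

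**Figure D2:**
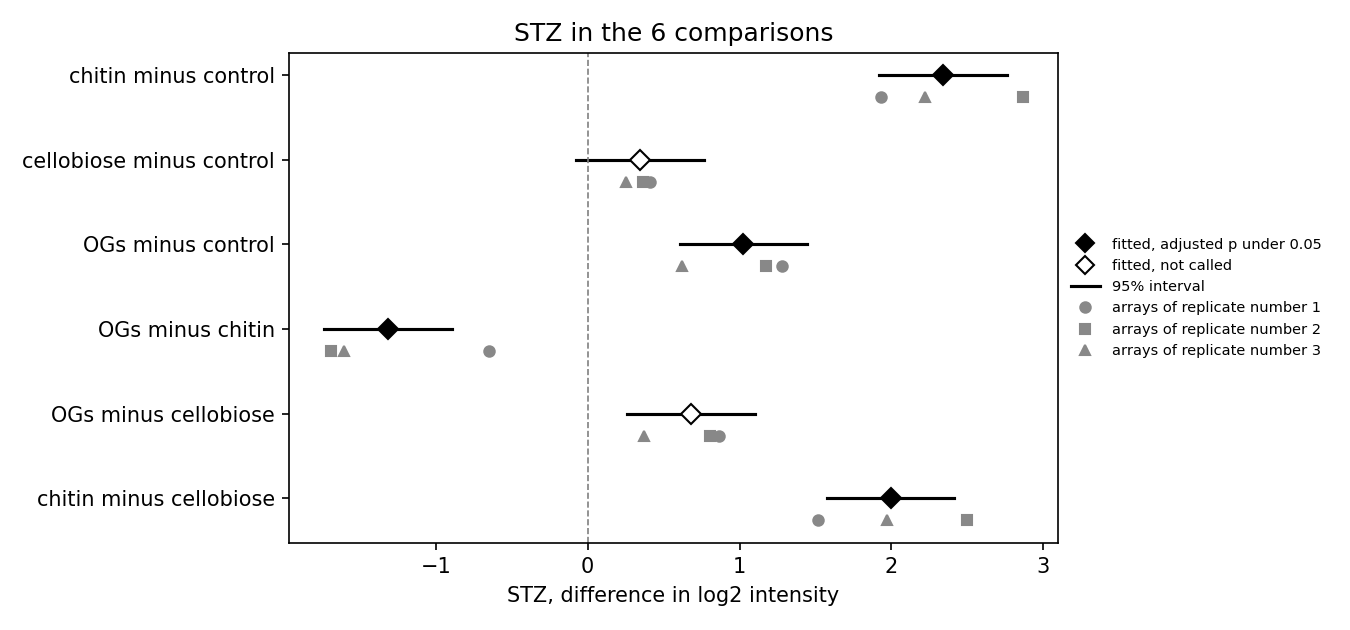
Difference in STZ log2 intensity (horizontal axis) in each of the 6 comparisons; diamonds are fitted differences, filled where the adjusted p was under 0.05, lines are 95 percent intervals, and gray symbols are the differences between arrays of the same replicate number. All 18 gray symbols lie on the same side of 0 as their fitted value, and 4 of the 6 diamonds are filled.

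The size of the rise was set beside that of other genes known to respond early to elicitors. These genes were chosen with earlier results of these data known, so the counts below are a description and no test of the list. Of a list of 42 such genes 10 had a probe set of their own in the annotation used, STZ among them. Genes with such a probe set are called measured here, and the others may have one that the annotation does not list. After chitin 8 of the 10 rose and 1 fell, against 11.0 percent of all probe sets called in either direction, and the median log2 change of the 10 was 0.87 (median of all probe sets -0.03). After OGs 2 of the 10 rose, STZ being 1 of them, and 0 fell, against 2.65 percent of all probe sets called, with a median of 0.18 (all probe sets -0.01). Without STZ, limma called 8 of 9 after chitin and 1 of 9 after OGs. After cellobiose limma called 0 of the 10, with 1 at an unadjusted p under 0.05 and a median of 0.09 (all probe sets -0.000741), where 2.27 percent of all probe sets were called.

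WRKY53, a transcription factor of defence and leaf senescence, had its arrays in the same order of groups as STZ. It read 9.43, 9.98 and 9.08 after chitin, 6.89, 6.86 and 6.77 after OGs, 6.09, 6.03 and 6.19 after cellobiose and 5.82, 5.78 and 5.82 in the control. Its 4 groups did not overlap either. The log2 change after chitin was larger for WRKY53 (3.69 ± 0.16 SE) than the 2.34 of STZ, whereas after OGs the changes were 1.03 for both genes (adjusted p = 0.01 for WRKY53). WRKY53 and STZ were the 2 members of the list that rose after OGs.

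PUB24, a ubiquitin ligase that dampens immune signalling, was the third member of the list with all 12 arrays in the order of STZ. Of all probe sets 0.273 percent had that order, which was read from STZ itself, so the count is a description. PUB24 read 6.25, 7.37 and 6.43 after chitin, 5.71, 6.10 and 5.94 after OGs, 5.32, 5.17 and 5.63 after cellobiose and 5.13, 5.09 and 4.85 in the control. It rose after chitin (1.66 ± 0.22 SE, adjusted p = 0.000847), and its change after OGs was 0.89 ± 0.22 (SE, adjusted p = 0.0686). Limma did not call PUB24 between OGs and chitin (adjusted p = 0.101) or between OGs and cellobiose (adjusted p = 0.374). The related ligase genes PUB22 and PUB23 rose after chitin by 1.15 and 0.99 and had changes of 0.16 and 0.19 after OGs that were not called.

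WRKY6, a transcription factor linked to senescence and phosphate supply, rose after chitin by 0.74, and BIK1, a kinase that acts directly below surface receptors, by 0.45. The calmodulin-like gene CML37 was called higher at 0.31, with group means under log2 5. CML38 had a change of 0.34 that was not called, also with group means under log2 5. WRKY22, a transcription factor placed below MAP kinases in flagellin signalling, was the member that fell (-0.72 ± 0.17 SE, adjusted p = 0.0168). Its means were low, at 5.01 after chitin and 5.73 in the control.

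**Figure D3:**
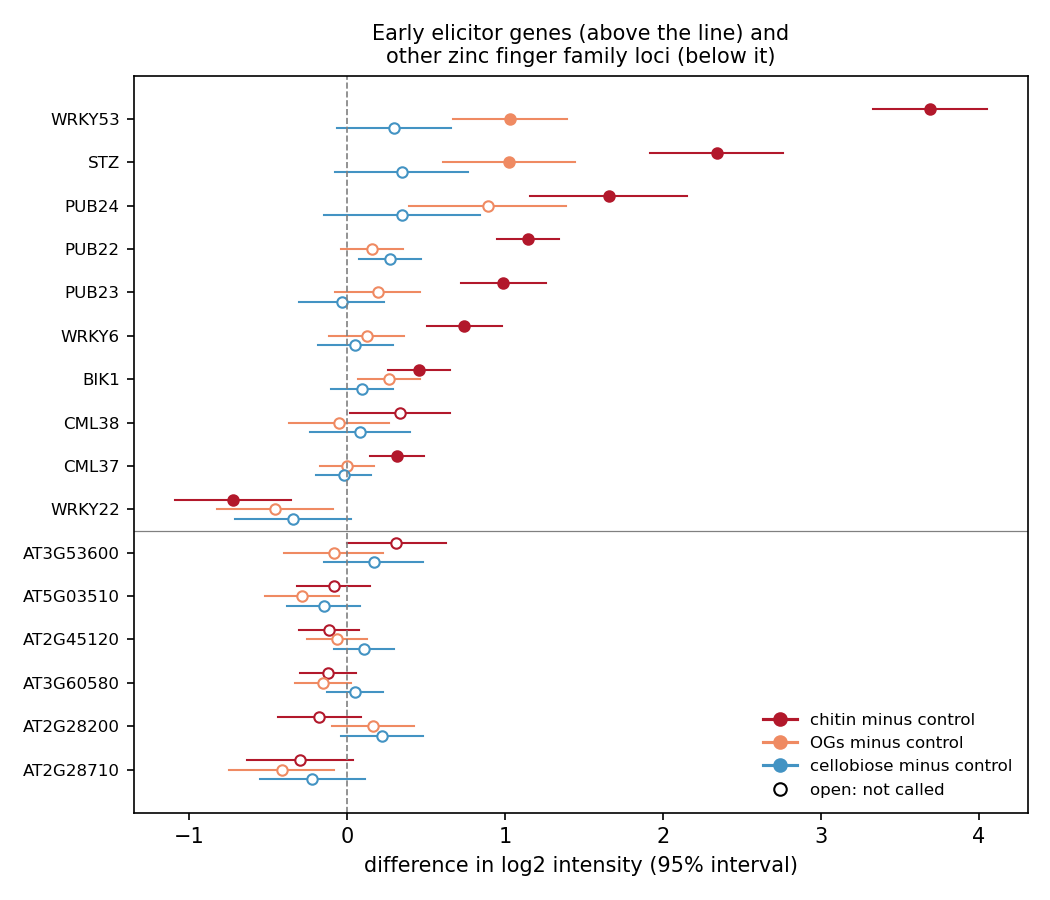
Difference in log2 intensity from the control (horizontal axis, with 95 percent intervals) after chitin, OGs and cellobiose for the 10 measured early elicitor genes, above the line, and 6 further loci of the zinc finger family list, below it; filled points were called. After chitin STZ (2.34) lies second to WRKY53 (3.69), and all points of the 6 further loci are open.

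A list of 17 loci, written from general knowledge of C2H2 genes with the repression motif and not checked against protein sequences, had 7 measured genes, of which STZ was called after chitin and after OGs. Of the other 6, limma called 0 after chitin, 0 after OGs and 0 after cellobiose, with 0, 2 and 0 at an unadjusted p under 0.05. Over all probe sets 11.0, 2.65 and 2.27 percent were called in these comparisons, so 0 of 6 does not set these loci apart. Their log2 changes ran from -0.30 to 0.31 after chitin, from -0.42 to 0.16 after OGs and from -0.22 to 0.22 after cellobiose. The gene table gives these 6 loci no name beyond the locus code.

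AT2G28200 was the brightest of the 6, with means of 8.03 ± 0.14 after chitin, 8.37 ± 0.13 after OGs, 8.43 ± 0.08 after cellobiose and 8.21 ± 0.22 in the control (SD, n = 3 each). AT2G28710 averaged 7.34 ± 0.26 after chitin, 7.23 ± 0.15 after OGs, 7.42 ± 0.09 after cellobiose and 7.64 ± 0.33 in the control. AT5G03510 averaged 6.03 ± 0.02 after chitin, 5.82 ± 0.24 after OGs, 5.96 ± 0.06 after cellobiose and 6.11 ± 0.13 in the control. AT3G53600 had the highest change of the 6 after chitin (0.31 ± 0.14 SE, adjusted p = 0.225), at group means of 4.75 ± 0.21 after chitin and 4.44 ± 0.18 in the control. This locus, AT3G60580 and AT2G45120 had all 4 group means under log2 5. The remaining members of the family list, the named relatives AZF1, AZF2, AZF3 and ZAT12 among them, were not analysed here.

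Genes around STZ in its known settings were sparsely covered by the annotation used, in which 8730 of the 22746 probe sets tested were not listed. The genes missing below may therefore be on the array without a name. ATMPK8 was the 1 of 23 genes of the MAP kinase cascade with a named probe set, at a log2 change of -0.22 ± 0.09 after chitin (SE, adjusted p = 0.171). None of 9 corepressor genes had a named probe set. Of 25 cold, salt and drought response genes 3 were measured. COR47, a dehydrin gene, differed by -0.51 ± 0.16 after chitin (SE, adjusted p = 0.0692), and the cold-regulated COR15A and COR15B had changes of 0.06 and -0.03 at means under log2 5. The ascorbate peroxidase genes SAPX and TAPX, which remove hydrogen peroxide in plastids, differed by -0.04 and -0.23 after chitin, TAPX at means under log2 5. OPCL1, which activates jasmonate precursors, differed by 0.23. Limma called 0 of these 7 genes after chitin, OGs or cellobiose, where 11.0, 2.65 and 2.27 percent of all probe sets were called. COR47 and ATMPK8 had an unadjusted p under 0.05 after chitin, and 0 of the 7 did after OGs or cellobiose.

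The genes most like STZ were sought by the root mean square, over the 12 arrays, of the difference between their log2 values and those of STZ, each gene first taken less its own control mean. A smaller value means a closer profile. Of 8129 named genes with a mean of at least log2 5 in some group, the median distance was 1.34. AT1G51890 was the closest at 0.238, followed by AT2G18690 (0.244), AT5G59680 (0.248), AT1G61360 (0.256) and AT3G54150 (0.262). AT4G07820, AT3G07600, AT1G74360, AT2G47550 and AT1G19020 made up the 10, at distances of 0.268 to 0.308. These genes were chosen for their profile, so their changes are given as a description without a test.

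AT1G51890 averaged 8.94 ± 0.19 after chitin, 7.41 ± 0.14 after OGs, 6.95 ± 0.17 after cellobiose and 6.40 ± 0.08 in the control (SD, n = 3 each). It and AT3G54150 were the 2 of the 10 whose arrays had the full order of STZ, against 0.273 percent of all probe sets. Among the 10, the log2 changes ran from 1.96 (AT1G74360) to 2.56 (AT3G54150) after chitin, from 0.61 (AT2G47550) to 1.23 (AT1G19020) after OGs and from 0.11 (AT1G74360) to 0.68 (AT5G59680) after cellobiose. The 2.34, 1.03 and 0.34 of STZ lay inside each of these ranges. All 10 had their highest value on chitin replicate 2, the array on which STZ was highest. The choice of these genes by their profile favours all of these likenesses, the shared order among them.

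**Figure D4:**
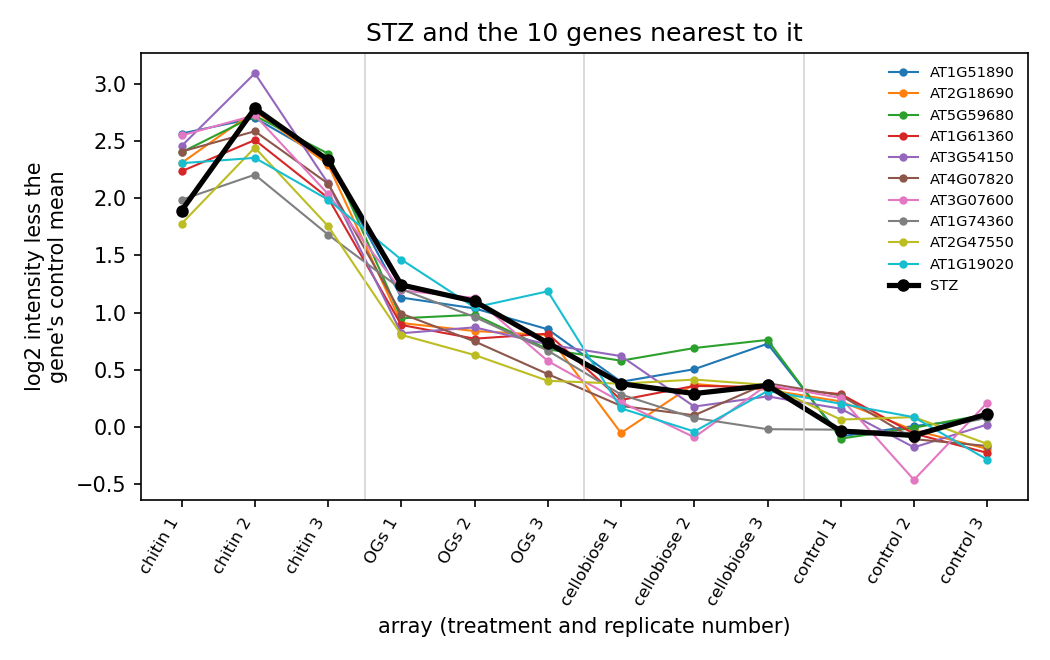
Log2 intensity less each gene's control mean (vertical axis) on the 12 arrays (horizontal axis, by treatment and replicate number) for STZ, in black, and the 10 named genes closest to it. All 11 lines peak on chitin replicate 2 and every gene averages 1.96 or more above its control mean on the chitin arrays.

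Marker lists of root and of green tissue were read beside these results as a check of the tissue. Of 20 root markers 2 were measured, PYK10, a root glucosidase, and EXPA7, an expansin of root hairs, and their mean lay between 11.5 and 11.7 on every array. Limma called 0 of the 2 after any elicitor, and 0 had an unadjusted p under 0.05, where 11.0 percent of all probe sets were called after chitin, 2.65 after OGs and 2.27 after cellobiose. The check of the tissue is therefore the level of these 2 genes, not the count. That level cannot show whether green tissue was absent. On the control arrays the mean of the green tissue genes below was 8.48 to 9.23, above the array medians of 6.30 to 6.41. Of 24 nuclear photosynthesis genes, markers of green tissue, 6 were measured and all 6 fell after chitin, 2 after OGs and 2 after cellobiose, against the same shares of all probe sets. All 6 had an unadjusted p under 0.05 and a negative change after each elicitor, with median log2 changes of -2.00 after chitin, -1.34 after OGs and -1.37 after cellobiose. LHCB4.2, an antenna protein gene of photosystem II, differed by -2.26 after chitin, PRK, a Calvin cycle kinase, by -2.49, PSAN, a photosystem I subunit, by -2.05 and CaS, a thylakoid calcium sensor, by -1.95. PRK and CaS fell by 2.08 and 1.43 after OGs, and LHCB4.1 and CaS by 1.15 and 1.49 after cellobiose. Their mean was 7.36, 6.16 and 7.12 on the chitin arrays, 8.04, 7.05 and 7.38 on the OGs arrays, 6.93, 7.42 and 7.88 on the cellobiose arrays and 8.48, 8.78 and 9.23 on the control arrays. Chitin replicate 2 thus had both the highest STZ value and the lowest photosynthesis mean, whereas OGs replicate 1 had the highest value of the OGs arrays for both. The part of this shift in the STZ result was not tested.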

How the data were processed

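Each deposited value is the log2 intensity of 1 probe set, as normalized by the authors. GCRMA is named in the series design text and Affymetrix Expression Console in the submitters' processing notes, without versions, and no source used here ties the values to either. Normalization of this kind assumes that most transcripts do not change and can compress differences among dim probe sets, which was not measured here. Array medians lay between 6.30 and 6.41 and arrays of a group correlated at 0.992 to 0.997 across probe sets, with at most 5 identical values in a pair, so no array was a copy of another of its group. The number of arrays limits the precision.

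Of 22810 probe sets, 64 manufacturer's controls were kept out and 22746 tested. Of these 13513 had exactly 1 gene in the probe annotation, 503 had several and 8730 were not listed. Names came from the RefSeq gene table of assembly TAIR10.1, used for names and neighbouring genes alone. It matched 13436 probe sets, and the brightest probe set stood for each gene. Values were fitted with limma 3.58.1 in R 4.3.3 (lmFit and eBayes) in 1 model of 4 groups with the replicate number as a block, because the design text takes ratios within sample pairs. That left 6 residual degrees of freedom. Within each of 6 comparisons, Benjamini-Hochberg adjustment covered all probe sets and calls were made under an adjusted p of 0.05. The calls rest on the spread between labelled biological replicates left after the block, moderated over all probe sets. The 4 groups share 1 estimate of it, although the SD of STZ ran from 0.05 after cellobiose to 0.45 after chitin. Intervals are not adjusted. The code was tested on simulated data.

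STZ and the gene lists were chosen with earlier results of these data known. The lists name 213 memberships, of which 32 were measured. Genes were named by rule: STZ, the 10 most like it, all measured members of the zinc finger, early elicitor and kinase lists, and up to 4 called members of each other list. The measured stress, peroxidase, jasmonate and root marker genes were named outside that rule, after their values were seen. A protein sequence rule for further zinc finger genes was not run, since sequences were not used here. Alternatives were no replicate block, quantile normalization, median centring, a minimum mean of log2 5, a variance trend, array weights, fits of 2 groups and leaving out each array.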

Additional observations from a re-analysis of the deposited data

How the results depend on the processing

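STZ kept its direction in all 6 comparisons under every alternative run. Its calls of chitin against control, OGs against chitin and chitin against cellobiose held in all 19 alternatives, and that across the 4 groups in all 18. The call of OGs against control was lost in 4 fits that leave out 1 array, with log2 changes of 0.84 to 1.19 and adjusted p of 0.00652 to 0.0851 over the 12 such fits. OGs against cellobiose (0.68) was called when only these 2 groups were fitted, with an adjusted p of 0.0412, a fit with fewer arrays and its own spread. Without the replicate block the 6 log2 changes were the same by construction, with adjusted p of 3.45e-06 for chitin, 0.0112 for OGs and 0.366 for cellobiose against control, and no STZ call changed. Same-numbered arrays did not deviate together (correlations of -0.23 to 0.252 over probe sets, 4 of 12 arrays closest to their own number), so the block follows the design text and not the data.

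The list counts after OGs moved when 1 array was left out, to 0 to 3 called early elicitor genes and 0 to 1 called zinc finger genes. Counts of called probe sets moved more. Leaving out 1 array gave 1540 to 2640 for chitin against control, 138 to 583 for cellobiose against control, 250 to 714 for OGs against control, 456 to 1142 for OGs against chitin, 153 to 441 for OGs against cellobiose, 625 to 1495 for chitin against cellobiose and 1458 to 2327 across the 4 groups. Fits of 2 groups gave 1088 for chitin and 303 for OGs against control. Array weights gave 343 for OGs against control and 2346 for chitin against cellobiose. Of the 10 genes most like STZ, 7 to 8 stayed among the 10 nearest when 1 replicate number was left out. The causes of these moves were not tested.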

Other observations

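The full order of groups seen for STZ was shared by 62 probe sets, of which 32 had a named gene. The pattern was read from STZ itself, so these genes are described without a test. Those with a symbol in place of a locus code were STZ, WRKY53, PUB24, AR781, CYP71B23 and PTI1-4. AR781 averaged 9.10 ± 0.28 after chitin, 8.38 ± 0.08 after OGs, 7.37 ± 0.09 after cellobiose and 6.56 ± 0.27 in the control (SD, n = 3 each). CYP71B23, a cytochrome P450 gene, averaged 9.47 ± 0.15 after chitin, 8.59 ± 0.12 after OGs, 8.24 ± 0.08 after cellobiose and 7.86 ± 0.14 in the control. PTI1-4, a protein kinase gene, averaged 8.18 ± 0.05 after chitin, 8.02 ± 0.05 after OGs, 7.81 ± 0.05 after cellobiose and 7.68 ± 0.05 in the control, a span much smaller than that of STZ.

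Of the 3 nearest protein-coding genes on each side of STZ, 1 was measured. AT1G27700, the third on one side, had log2 changes of -0.09 after chitin, -0.04 after OGs and 0.08 after cellobiose, none of them called. The adjacent genes TAF4B and RSL4 were not analysed here.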
